A study of Mus musculus with 27 samples.

Results

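Zonation of the liver was followed through 10 genes that mark hepatocytes around the portal vein: Hal, Sds, Cyp2f2, Hsd17b13, Gls2, Ctsc, Etnppl, Aldh1b1, Pigr and Cdh1. They were taken from the count table by their GENCODE M21 symbol, and all 10 of 10 were found among 43346 genes and passed the filter on low counts. The study sequenced polyadenylated RNA of liver hepatocytes from female mice at 12 weeks of age, to set gene expression beside chromatin marks in inbred strains; no treatment is named. The groups are the inbred strains 129S1/SvImJ, A/J, C57BL/6J, CAST/EiJ, DBA/2J, NOD/ShiLtJ, NZO/HlLtJ, PWK/PhJ and WSB/EiJ, with 3 libraries each and 27 in all. CAST/EiJ, PWK/PhJ and WSB/EiJ descend from wild-caught mice, and the other 6 are classical laboratory strains. The labels call the libraries biological replicates and do not name the animals, so p-values measure the spread between these libraries.

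Blood enters the liver lobule at the portal vein, rich in oxygen and nutrients, and leaves at the central vein. Hepatocytes along this path divide the work: those near the portal vein carry out amino acid breakdown, urea synthesis and glucose production, and those near the central vein glutamine synthesis and much of the cytochrome P450 chemistry. Wnt signals from the central vein favour the pericentral programme, and glucagon acts on the periportal side. The labels name whole hepatocyte preparations, so the zone of each gene is textbook knowledge here and was not measured.

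Total counts ran from 17015942 to 35078485 per library, and the lowest count of any of the 10 genes in any library was 411, for Cdh1. Levels are given as CPM, counts scaled to a common library size after TMM, a factor that balances libraries of different composition. Of 6 hepatocyte markers, Alb averaged 132000 CPM. Cholangiocytes, the bile duct cells that also make Cdh1 and Pigr, were close to absent: their 6 markers summed to between 1.6 and 9.64 CPM, and Krt19, Krt7, Epcam and Cftr each averaged under 0.1 CPM. Kupffer cell markers summed to between 29.9 and 370.1 CPM and liver endothelial markers to between 51.9 and 670.1 CPM, both highest in PWK/PhJ replicate 1. In such bulk samples, fewer cells of a type and less RNA per cell cannot be told apart.

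The sequences before the start sites of the 5 genes that make up the pairs called across strain means below are shown to let the pairs be compared. Each is the 250 bases upstream of a RefSeq start (GRCm38.p6), 5′ to 3′ on the gene's strand, and capitals mark a motif that was searched for. Etnppl has a second RefSeq window, at chr3:130617325-130617574, and the upstream one is shown. Hal lies at chr10:93488518-93488767 (+), Etnppl at chr3:130617198-130617447 (+), Aldh1b1 at chr4:45798772-45799021 (+), Hsd17b13 at chr5:103977389-103977638 (-) and Pigr at chr1:130826434-130826683 (+).
Hal: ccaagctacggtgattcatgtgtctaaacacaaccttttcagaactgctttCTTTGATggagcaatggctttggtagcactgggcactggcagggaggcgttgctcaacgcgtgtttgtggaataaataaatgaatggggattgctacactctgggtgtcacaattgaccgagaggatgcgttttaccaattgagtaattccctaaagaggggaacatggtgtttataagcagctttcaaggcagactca
Etnppl: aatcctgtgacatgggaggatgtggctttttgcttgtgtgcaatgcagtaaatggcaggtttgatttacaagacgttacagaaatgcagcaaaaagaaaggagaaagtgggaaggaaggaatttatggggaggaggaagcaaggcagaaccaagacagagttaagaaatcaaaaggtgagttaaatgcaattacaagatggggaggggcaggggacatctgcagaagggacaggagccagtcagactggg
Aldh1b1: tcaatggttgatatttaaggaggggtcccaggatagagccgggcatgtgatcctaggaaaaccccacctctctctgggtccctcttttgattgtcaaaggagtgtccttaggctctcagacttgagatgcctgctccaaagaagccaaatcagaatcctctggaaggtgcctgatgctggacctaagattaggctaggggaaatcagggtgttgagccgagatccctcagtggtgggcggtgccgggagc
Hsd17b13: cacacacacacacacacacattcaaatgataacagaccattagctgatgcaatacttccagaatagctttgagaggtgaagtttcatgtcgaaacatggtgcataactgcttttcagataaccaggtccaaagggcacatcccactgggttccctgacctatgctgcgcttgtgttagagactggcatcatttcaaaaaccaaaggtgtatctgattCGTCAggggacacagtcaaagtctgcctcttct
Pigr: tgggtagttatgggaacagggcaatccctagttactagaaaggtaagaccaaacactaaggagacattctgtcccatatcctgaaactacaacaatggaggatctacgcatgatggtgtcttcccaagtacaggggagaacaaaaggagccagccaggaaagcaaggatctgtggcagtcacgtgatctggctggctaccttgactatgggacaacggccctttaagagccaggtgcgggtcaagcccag
RefSeq promoters of 300 bases (250 before and 50 after the start) matched 7 of the 10 genes. Both strands were searched for the core of the cAMP response element, TGACG. They were also searched for the site of the TCF/LEF factors of the Wnt pathway, spelled CTTTGAT or the same with a final A in place of T. The TCF/LEF form in capitals stands 199 bases before the start of Hal. The cAMP element core stands on the opposite strand 33 bases before the start of Hsd17b13, and it lies 17 bases after that of Aldh1b1, outside the stretch shown. Among 27025 mouse promoters of this length, the cAMP element core occurs in 21% and either TCF/LEF form in 8.77%. Such matches describe letters and show no bound factor.

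The first question was whether the 10 genes differed among strains. All 10 were called for a strain effect (edgeR quasi-likelihood F test on all strains, Benjamini-Hochberg adjusted p under 0.05). The background was 74.2% of the 14482 genes tested and 80.1% of the 6336 averaging at least 10 CPM. The 10 genes were chosen with earlier results of these data known. Here and below, values over all genes therefore stand beside them as description and are no independent test. The ratio of the highest to the lowest strain mean ran from 2.42 for Cyp2f2 to 11.6 for Etnppl. Strain accounted for a median of 87.7% of the sum of squares of log2 CPM in the 10 genes, against 66.6% in all genes tested and 68.4% in the 6336 genes averaging at least 10 CPM. Per kilobase of the longest transcript, mean level was highest for Cyp2f2 (822.5 CPM per kb) and Pigr (749.4 CPM per kb) and lowest for Cdh1 (14.8 CPM per kb). Each strain was then compared with the mean of the other 8 in the same fit, and a strain is called higher or lower where the adjusted p was under 0.05. Those comparisons share libraries and are set side by side.

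**Figure D1:**
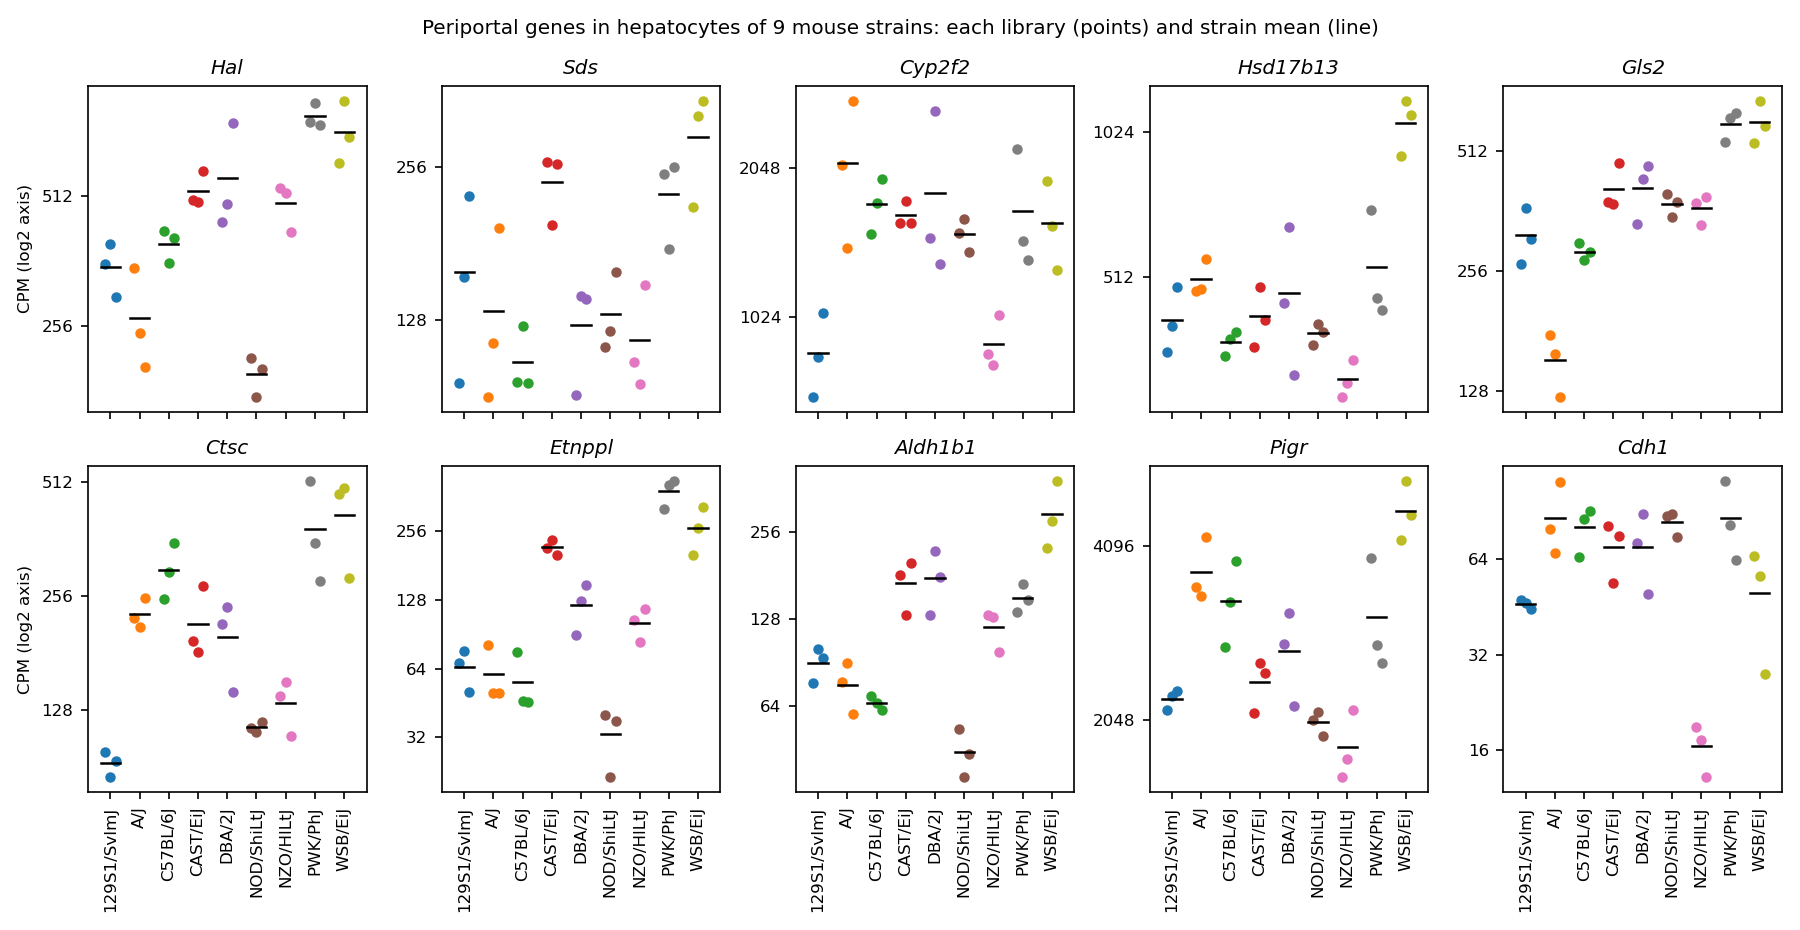
CPM of each periportal gene (log2 vertical axis) in each of the 27 libraries (points, coloured by strain), with the strain mean as a black line. Etnppl spans the widest range, from 21.45 CPM in a NOD/ShiLtJ library to 426.5 CPM in a PWK/PhJ library, and Cdh1 is set apart by its low NZO/HlLtJ libraries.

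Hal (ENSMUSG00000020017, chr10:93488768-93519304, + strand), histidine ammonia-lyase, opens the breakdown of histidine. Hal stood at 761.9, 843.7 and 748.5 CPM in PWK/PhJ and at 611.7, 852.7 and 701.4 CPM in WSB/EiJ. In NOD/ShiLtJ it stood at 215.6, 175.5 and 203.3 CPM, and in A/J at 349.7, 247.1 and 206.3 CPM. No PWK/PhJ or WSB/EiJ library overlapped those of NOD/ShiLtJ or A/J. Strain means were 784.7 ± 51.5 CPM (SD, n = 3) in PWK/PhJ and 198.1 ± 20.6 CPM (SD, n = 3) in NOD/ShiLtJ, a ratio of 3.96 (edgeR adjusted p for strain 9.27e-08). Against the other 8 strains, Hal was higher in PWK/PhJ (log2 fold change 0.94, SE 0.14, adjusted p 6.64e-06) and WSB/EiJ (0.80, SE 0.14, adjusted p 0.0001). It was lower in NOD/ShiLtJ (-1.29, SE 0.17, adjusted p 3.06e-06) and A/J (-0.81, SE 0.16, adjusted p 0.000589).

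Etnppl (ENSMUSG00000019232, chr3:130617448-130637521, + strand), the lyase that breaks down phosphoethanolamine, varied most. Its libraries read 321.6, 408.7 and 426.5 CPM in PWK/PhJ and 201, 265 and 327.3 CPM in WSB/EiJ. The 3 CAST/EiJ libraries read 216.9, 235.8 and 201.5 CPM. In NOD/ShiLtJ they read 40.3, 21.45 and 37.7 CPM, below every library of the other strains. C57BL/6J followed with 75.7, 46.3 and 45.9 CPM. Strain means of 385.6 ± 56.1 CPM in PWK/PhJ and 33.1 ± 10.2 CPM in NOD/ShiLtJ (SD, n = 3 each) gave the ratio of 11.6 (edgeR adjusted p for strain 1.09e-10). Etnppl was higher in PWK/PhJ (log2 fold change 2.06, SE 0.16, adjusted p 2.45e-10) and WSB/EiJ (1.45, SE 0.17, adjusted p 4.57e-07), and lower in NOD/ShiLtJ (-1.92, SE 0.23, adjusted p 9.3e-07) and C57BL/6J (-1.07, SE 0.21, adjusted p 0.000795).

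Aldh1b1 (ENSMUSG00000035561, chr4:45799022-45804604, + strand) is a mitochondrial aldehyde dehydrogenase. WSB/EiJ libraries held 225.1, 279 and 385 CPM, above every other library, and NOD/ShiLtJ libraries 53.4, 36.4 and 43.9 CPM, below every other library. Means of 296.4 ± 81.4 CPM and 44.6 ± 8.49 CPM (SD, n = 3 each) differed 6.65-fold (edgeR adjusted p for strain 1.85e-09). Aldh1b1 was higher in WSB/EiJ (log2 fold change 1.55, SE 0.14, adjusted p 5.08e-09) and DBA/2J (0.72, SE 0.15, adjusted p 0.00131), and lower in NOD/ShiLtJ (-1.53, SE 0.18, adjusted p 9.68e-07) and C57BL/6J (-0.90, SE 0.17, adjusted p 0.000573). Without DBA/2J replicate 3 the DBA/2J call was lost (adjusted p 0.0641).

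Gls2 (ENSMUSG00000044005, chr10:128194457-128210004, + strand), the liver glutaminase that frees ammonia for urea synthesis, was lowest in A/J. The A/J libraries held 176.6, 159.1 and 123.8 CPM, below all 24 others, and those of WSB/EiJ 536.4, 684.2 and 591.8 CPM. PWK/PhJ lay beside WSB/EiJ, with 538.2, 617.8 and 636.3 CPM. Means were 604.1 ± 74.7 CPM in WSB/EiJ and 153.1 ± 26.9 CPM in A/J (SD, n = 3 each), a ratio of 3.94 (edgeR adjusted p for strain 1.71e-08). Gls2 was higher in WSB/EiJ (log2 fold change 0.81, SE 0.11, adjusted p 6.11e-06) and PWK/PhJ (0.80, SE 0.11, adjusted p 4.95e-06), and lower in A/J (-1.41, SE 0.14, adjusted p 4.05e-08) and C57BL/6J (-0.40, SE 0.13, adjusted p 0.0293). Without C57BL/6J replicate 2 or 4 the C57BL/6J call was lost (adjusted p 0.148 and 0.131), as it was without a filter on low counts (0.0603) and with the mean levels of Kupffer and endothelial markers as covariates (0.347, log2 fold change -0.29). Gls2 overlaps Spryd4 on the opposite strand, and the kit is not stated to keep strand.

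Sds (ENSMUSG00000029597, chr5:120476526-120483932, + strand), the serine dehydratase that turns serine into pyruvate, was highest in WSB/EiJ, with 213.4, 323.9 and 346.6 CPM. C57BL/6J libraries held 96.3, 124.3 and 95.9 CPM, with no overlap. Replicates spread widely elsewhere: the 129S1/SvImJ libraries held 96, 155.6 and 224.5 CPM. Means of 294.6 ± 71.3 CPM and 105.5 ± 16.3 CPM (SD, n = 3 each) differed 2.79-fold (edgeR adjusted p for strain 0.0003). Sds was higher in WSB/EiJ (log2 fold change 0.99, SE 0.20, adjusted p 0.00054) and CAST/EiJ (0.66, SE 0.20, adjusted p 0.0132), and lower in C57BL/6J (-0.68, SE 0.23, adjusted p 0.0422). The CAST/EiJ call was lost without CAST/EiJ replicate 1 or 5 (adjusted p 0.0856 and 0.0766). The C57BL/6J call was lost in 10 of 27 fits that left out a library, up to an adjusted p of 0.21 without C57BL/6J replicate 4, and with Kupffer and endothelial covariates (0.229, log2 fold change -0.63). The other libraries were 129S1/SvImJ replicate 2, C57BL/6J replicates 1 and 2, CAST/EiJ replicates 1 and 5, DBA/2J replicate 4, NOD/ShiLtJ replicate 3, PWK/PhJ replicate 3 and WSB/EiJ replicate 4. Sds had fractional counts in 27 libraries, and it overlaps Gm15690 and Plbd2 on the opposite strand; how shared reads were divided is not given in the sources used here.

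Cyp2f2 (ENSMUSG00000052974, chr7:27119909-27133660, + strand), a cytochrome P450 that activates small aromatic compounds such as naphthalene, varied least by ratio. Its A/J libraries held 2074, 1412 and 2797 CPM, its 129S1/SvImJ libraries 704.5, 849.3 and 1043 CPM and its NZO/HlLtJ libraries 860, 816.2 and 1032 CPM. Libraries of 129S1/SvImJ and NZO/HlLtJ lay below all those of the other 7 strains. Means were 2094 ± 692.9 CPM in A/J and 865.6 ± 169.8 CPM in 129S1/SvImJ (SD, n = 3 each; edgeR adjusted p for strain 0.00163). Cyp2f2 was lower in 129S1/SvImJ (log2 fold change -0.87, SE 0.21, adjusted p 0.00483) and NZO/HlLtJ (-0.80, SE 0.21, adjusted p 0.00623) and higher in A/J (0.57, SE 0.18, adjusted p 0.0243). Without A/J replicate 3 the A/J change was 0.29 (adjusted p 0.404), and without A/J replicate 1 it missed the threshold too (adjusted p 0.0627), as it did with Kupffer and endothelial covariates (0.0928, log2 fold change 0.48). The lower calls were lost without 129S1/SvImJ replicate 1 (adjusted p 0.0635) and without NZO/HlLtJ replicate 2 (adjusted p 0.0563) or with those covariates in NZO/HlLtJ (0.113, log2 fold change -0.47). Cyp2f2 had fractional counts in 27 libraries and overlaps the antisense gene Gm15883.

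Hsd17b13 (ENSMUSG00000034528, chr5:103955440-103977410, - strand) encodes a hydroxysteroid dehydrogenase of lipid droplets. In WSB/EiJ it held 914.1, 1191 and 1112 CPM, above every other library, the next being 707.2 CPM in PWK/PhJ replicate 1. NZO/HlLtJ libraries held 288, 307.9 and 344.4 CPM. The means of 1073 ± 142.7 CPM and 313.4 ± 28.6 CPM (SD, n = 3 each) differed 3.42-fold (edgeR adjusted p for strain 2.12e-06). Hsd17b13 was higher in WSB/EiJ (log2 fold change 1.34, SE 0.14, adjusted p 5.87e-08) and lower in NZO/HlLtJ (-0.66, SE 0.16, adjusted p 0.00488). With Kupffer and endothelial marker means as covariates the NZO/HlLtJ change was -0.31 (adjusted p 0.0827). The 8 strain means other than WSB/EiJ lay between 313.4 and 535.7 CPM.

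The remaining genes act in lysosomes, transport and adhesion. Ctsc (ENSMUSG00000030560, chr7:88278085-88310888, + strand), cathepsin C, a lysosomal protease also made by immune cells, was lowest in 129S1/SvImJ. Its libraries there held 99.1, 85 and 94 CPM, below all others, against 475.7, 494.2 and 285 CPM in WSB/EiJ and 516.4, 354.5 and 281.3 CPM in PWK/PhJ. NOD/ShiLtJ libraries held 114.4, 111.6 and 119.2 CPM. Means of 418.3 ± 115.8 CPM in WSB/EiJ and 92.7 ± 7.13 CPM in 129S1/SvImJ (SD, n = 3 each) differed 4.51-fold (edgeR adjusted p for strain 6.45e-08). Ctsc was higher in WSB/EiJ (log2 fold change 1.15, SE 0.15, adjusted p 4.26e-06) and PWK/PhJ (1.01, SE 0.16, adjusted p 1.72e-05) and lower in 129S1/SvImJ (-1.30, SE 0.19, adjusted p 2.55e-05) and NOD/ShiLtJ (-0.95, SE 0.19, adjusted p 0.000738). Ctsc overlaps Gm26522 on the opposite strand.

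Pigr (ENSMUSG00000026417, chr1:130826684-130852249, + strand), the receptor that carries polymeric immunoglobulin into bile, had the highest mean CPM of the 10 genes, 2885 over 27 libraries. WSB/EiJ libraries held 4207, 5324 and 4636 CPM and NZO/HlLtJ libraries 1628, 1750 and 2131 CPM. The groups did not overlap, although A/J replicate 3, at 4246 CPM, reached into the WSB/EiJ range. Means of 4722 ± 563.4 CPM and 1836 ± 262.2 CPM (SD, n = 3 each) differed 2.57-fold (edgeR adjusted p for strain 9.72e-06). Pigr was higher in WSB/EiJ (log2 fold change 0.87, SE 0.13, adjusted p 1.66e-05) and A/J (0.47, SE 0.13, adjusted p 0.0113) and lower in NZO/HlLtJ (-0.66, SE 0.15, adjusted p 0.00188) and NOD/ShiLtJ (-0.50, SE 0.15, adjusted p 0.0202). The A/J call was lost without A/J replicate 3 (adjusted p 0.149), and the NOD/ShiLtJ call without NOD/ShiLtJ replicate 1, 2 or 3 (adjusted p 0.0847, 0.0679 and 0.117). Without a filter on low counts the NOD/ShiLtJ call was lost as well (adjusted p 0.0512), and Pigr had fractional counts in 27 libraries.

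Cdh1 (ENSMUSG00000000303, chr8:106603351-106670246, + strand), E-cadherin, holds neighbouring epithelial cells together. In NZO/HlLtJ it held 18.9, 17.3 and 13.2 CPM, below all 24 other libraries, the nearest being 27.8 CPM in WSB/EiJ replicate 4. PWK/PhJ libraries held 112.8, 82.1 and 63.3 CPM and A/J libraries 79.5, 66.7 and 111.7 CPM. Means of 86.1 ± 24.9 CPM in PWK/PhJ and 16.5 ± 2.96 CPM in NZO/HlLtJ (SD, n = 3 each) differed 5.23-fold (edgeR adjusted p for strain 4.57e-06). Cdh1 was lower in NZO/HlLtJ (log2 fold change -2.08, SE 0.24, adjusted p 4.41e-07) and higher in PWK/PhJ (0.60, SE 0.19, adjusted p 0.0157) and A/J (0.60, SE 0.19, adjusted p 0.021). The higher calls were lost without PWK/PhJ replicate 1 (adjusted p 0.252) and without A/J replicate 3 (adjusted p 0.321). They were also lost with the Kupffer and endothelial marker means as covariates (log2 fold change 0.38 and 0.34, adjusted p 0.303 and 0.336).

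Neighbours in these strain orders were compared for the 10 genes only, so no share over all genes stands beside the counts. When the 9 strains were ranked by mean CPM, the libraries of neighbouring strains did not overlap in 14 of 80 neighbouring pairs over the 10 genes. Etnppl and Aldh1b1 had 3 such gaps each of 8, Hsd17b13 and Gls2 had 2 each, and Hal and Sds had 0. WSB/EiJ ranked highest for 6 genes (Sds, Hsd17b13, Gls2, Ctsc, Aldh1b1 and Pigr), PWK/PhJ for Hal, Etnppl and Cdh1, and A/J for Cyp2f2. The lowest rank fell to NOD/ShiLtJ for Hal, Etnppl and Aldh1b1, to NZO/HlLtJ for Hsd17b13, Pigr and Cdh1, to 129S1/SvImJ for Cyp2f2 and Ctsc, to C57BL/6J for Sds and to A/J for Gls2.

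Read by strain, 45 of 90 gene by strain comparisons were called, 24 higher and 21 lower, against 24.1% of such comparisons over all genes tested. WSB/EiJ was higher for 8 of 10 genes and lower for 0 (15.5% of all genes were called higher there), with a median log2 fold change of 0.93. PWK/PhJ was higher for 7 and lower for 0 (background 19.4%, median 0.58), and CAST/EiJ higher for 3 and lower for 0 (20.1%, median 0.23). The PWK/PhJ count was 5, 6 and 5 without PWK/PhJ replicate 1, 2 and 3 in turn. Its Sds call was lost without replicate 1 or 3 (edgeR adjusted p 0.147 and 0.168). Its Aldh1b1 call was lost without replicate 2 or 3 (edgeR adjusted p 0.164 and 0.0668). The CAST/EiJ count was 2 without CAST/EiJ replicate 1 or 5 and 4 without DBA/2J replicate 4. NZO/HlLtJ was lower for 5 and higher for 0 (12.9%, median -0.58). NOD/ShiLtJ was lower for 5 (5.72%) and higher for 1, Cdh1 (9.2%), and 129S1/SvImJ lower for 3 (7.86%) and higher for 0 (10.5%), with 5 lower by DESeq2. A/J had 3 higher (15.9%) and 4 lower (11.6%), but 0 higher and 3 lower without A/J replicate 3. Its median log2 fold change of -0.09 was 0.04 without A/J replicate 1 and -0.24 without A/J replicate 3. C57BL/6J had 1 higher, Ctsc (11.6%), and 4 lower (6.5%). Its lower count was 2 without C57BL/6J replicate 2 or 4. Its higher count was 0 without C57BL/6J replicate 4 (Ctsc adjusted p 0.149) or with the Kupffer and endothelial covariates (0.565, log2 fold change 0.24), and 2 without C57BL/6J replicate 1 or PWK/PhJ replicate 1. The Cdh1 call in NOD/ShiLtJ (adjusted p 0.0497) was lost in 18 of 27 fits without a library, up to 0.198 without NOD/ShiLtJ replicate 2. It was lost too with DESeq2 (0.0566), with its size factors (0.0639) and with a minimum mean of 10 counts (0.0529). DBA/2J was higher for 1 gene, Aldh1b1 (9.5%), and lower for 0 (3.77%). That count was 0 without DBA/2J replicate 3, and 2 without A/J replicate 1, DBA/2J replicate 2 or WSB/EiJ replicate 3, by DESeq2 and with the Kupffer and endothelial covariates. In either direction, 24.7% of all genes were called in WSB/EiJ, 34.2% in PWK/PhJ and 27.6% in NZO/HlLtJ. Over all genes tested, the median log2 fold change of each strain lay between -0.01 and 0.02.

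Marker levels of other cells also differed among strains. Liver endothelial markers were called higher for 8 of 8 genes in PWK/PhJ (median log2 fold change 1.57) and lower for 6 of 8 in NZO/HlLtJ (median -1.17). Their sum ran from 205.1 to 670.1 CPM in PWK/PhJ and from 51.9 to 95.6 CPM in NZO/HlLtJ. Kupffer cell markers were called higher for 8 of 8 in C57BL/6J, 7 of 8 in A/J and 4 of 8 in PWK/PhJ (1 lower, median 0.84), and for 0 in WSB/EiJ. They were called lower for 5 of 8 in CAST/EiJ and 3 of 8 in 129S1/SvImJ. Stellate cell markers were called higher for 3 of 8 in PWK/PhJ and lower for 4 of 8 in NZO/HlLtJ. Hepatocyte markers were called higher for 5 of 6 in A/J (1 lower, median 0.74) and 2 of 6 in WSB/EiJ, and lower for 2 of 6 in each of NZO/HlLtJ, 129S1/SvImJ and CAST/EiJ. With the means of both marker lists as covariates in the edgeR fit, WSB/EiJ had 8 higher and 0 lower (median 1.00), PWK/PhJ had 5 higher and 0 lower (median 0.53, beside 0.58 without them), and NZO/HlLtJ had 2 lower in place of 5 (median -0.37, beside -0.58). A/J had 1 higher in place of 3 and 4 lower, and C57BL/6J 0 higher and 3 lower (median -0.14, beside -0.27). Beyond this fit, the part of these cells in the strain differences was not tested.

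**Figure D2:**
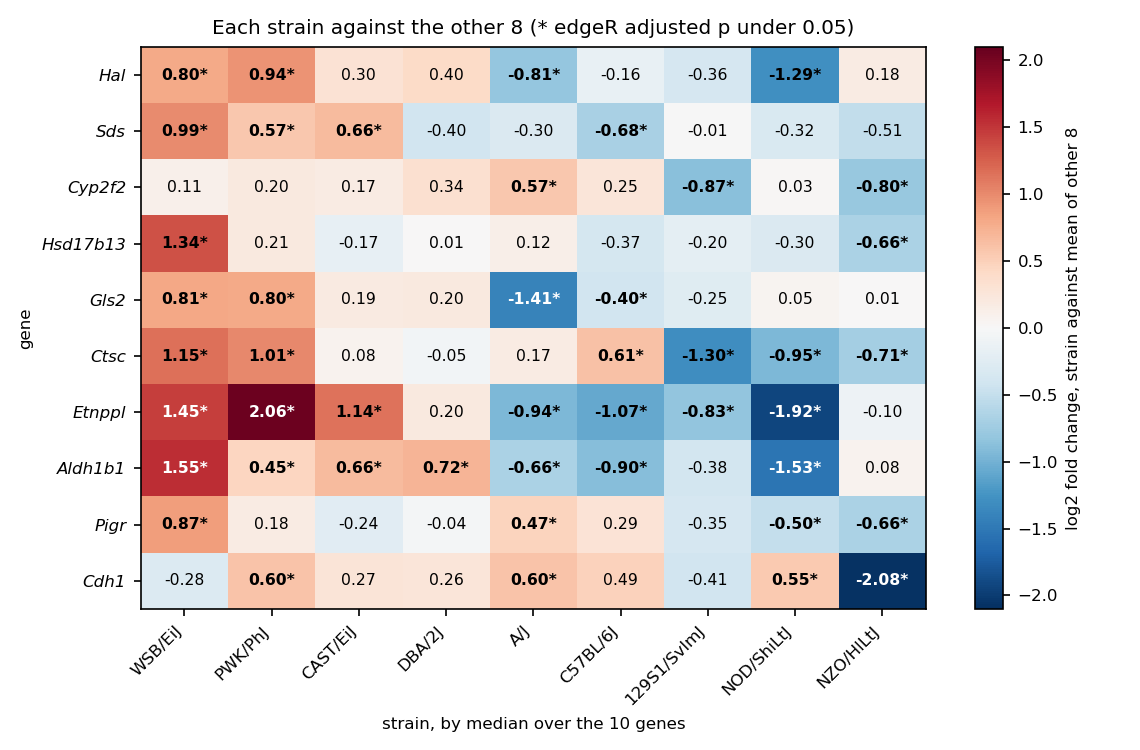
Log2 fold change of each strain against the mean of the other 8 (colour and printed value) for each periportal gene, strains ordered by their median over the 10 genes. Asterisks and bold mark edgeR adjusted p under 0.05; the WSB/EiJ column holds 8 higher calls and the NZO/HlLtJ column 5 lower calls.

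A second question was whether the genes move together: first from strain to strain and then from library to library of a strain. Across the 9 strain means of log2 CPM, which are independent libraries but strains of partly shared ancestry, Pearson's r was positive in 40 of 45 pairs with a median of 0.505. Over all pairs of genes tested the median was -0.001 and 49.9% were positive. Values of r over 0.5 made up 51.1% of the 45 pairs and 13.1% of all pairs. After adjustment over the 45 pairs, 4 were called. All 45 pairs before adjustment held 12 with p under 0.05, each positive. The closest was Hal with Etnppl (r = 0.928, exact permutation p 0.000339, adjusted p 0.01525; Spearman's rho 0.933, exact p 0.0007496, adjusted p 0.03373; n = 9). Next were Hal with Aldh1b1 (r = 0.887, exact permutation p 0.001557, adjusted p 0.0317; rho 0.85, exact p 0.006074) and Etnppl with Aldh1b1 (r = 0.880, exact permutation p 0.002114, adjusted p 0.0317; rho 0.883, exact p 0.003075). Hsd17b13 with Pigr was the last (r = 0.827, exact permutation p 0.002946, adjusted p 0.03314; rho 0.717, exact p 0.03687). Without the 2 strains farthest from the median of the former gene, r was 0.934, 0.790, 0.950 and 0.508 in the order given, so the Hsd17b13 and Pigr relation rests in part on those strains. Only Hal with Etnppl was called by Spearman's rho after adjustment, and it was the only pair called with Kupffer and endothelial means as covariates.

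The values were also taken over the 6 strains other than WSB/EiJ, PWK/PhJ and CAST/EiJ. Over these 6 strain means the median r of the 45 pairs was -0.036, and 22 were positive. The 3 pairs among Hal, Etnppl and Aldh1b1 had been picked by their r over strain means that include these 6. There r was 0.919, 0.885 and 0.984 for Hal with Etnppl, Hal with Aldh1b1 and Etnppl with Aldh1b1 (exact permutation p 0.01389, 0.02222 and 0.001389, n = 6). The last is the smallest p that 6 strains allow, and it was 0.0625 after Benjamini-Hochberg adjustment over the 45 pairs, and no pair was called. Hsd17b13 with Pigr gave r = 0.695 (exact permutation p 0.1208, n = 6). This restriction was chosen after the strain values had been seen and removes the 3 strains that hold 18 of the 24 higher calls and 0 lower calls, so it lowers the shared variation by construction.

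**Figure D3:**
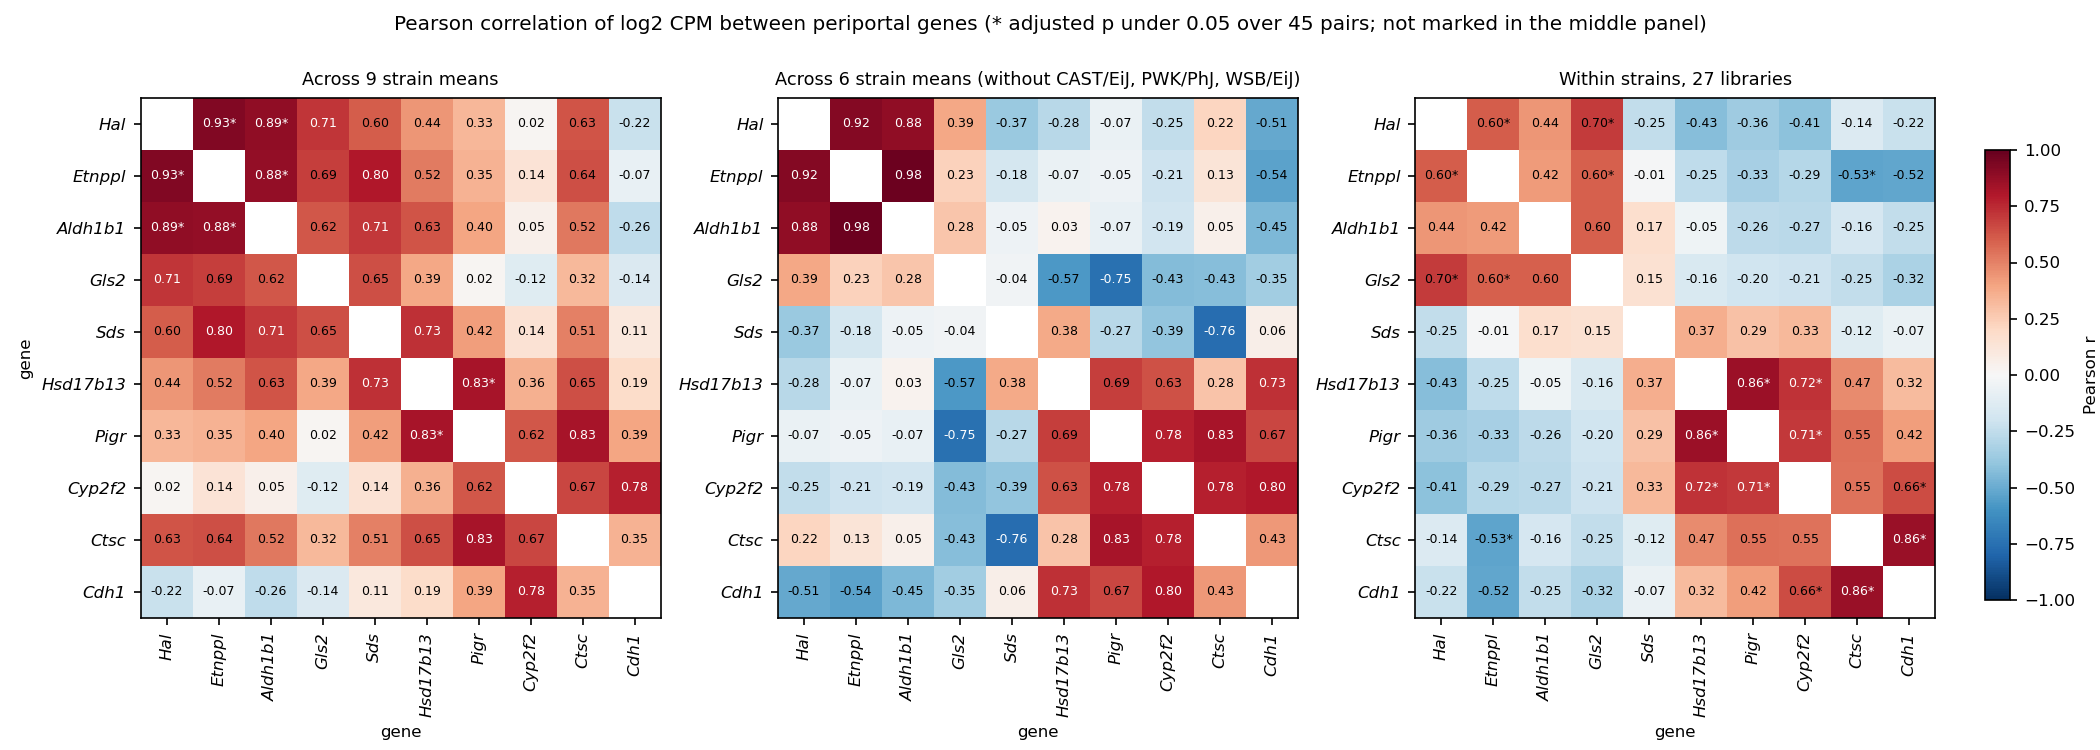
Pearson's r of log2 CPM between periportal genes over 9 strain means (left), over the 6 strain means without CAST/EiJ, PWK/PhJ and WSB/EiJ (middle) and over 27 libraries as deviations from their strain mean (right). Asterisks mark adjusted p under 0.05; the gene order was chosen after the values were seen. Most of the 45 pairs are positive on the left (40 of 45), and 21 of 45 are positive on the right.

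Within strains the genotype is fixed, and 27 libraries were taken as deviations from their strain mean. Here the median r was -0.046 and 21 of 45 pairs were positive, against a median of 0 over all pairs of genes tested. Values of r over 0.5 made up 24.4% of the 45 pairs, against 7.1% of all pairs of genes tested. After adjustment 9 pairs were called, 8 positive and 1 negative. Hsd17b13 with Pigr was the tightest by p (r = 0.859, permutation p 1e-05, the smallest that 100000 shuffles can give, adjusted p 0.00045; rho 0.883, permutation p 1e-05). Ctsc with Cdh1 followed (r = 0.865, permutation p 0.00017, adjusted p 0.003825; rho 0.813, permutation p 0.00029). Without the 2 libraries farthest from the median of the former gene, r was 0.850 and 0.817. Both pairs were called in all 27 fits without a library and in all 7 other alternatives that used all strains. Over the 18 libraries of the 6 classical strains r was 0.784 and 0.844 (permutation adjusted p 0.00315 and 0.03386). Those libraries are part of the 27 by which both pairs were picked, so this is no separate test. The restriction was also chosen after values had been seen.

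The other positive pairs linked Cyp2f2 with Pigr (r = 0.710, rho 0.669, permutation p 0.00152 and 0.0024, adjusted p 0.0228), Hsd17b13 (r = 0.720, rho 0.625, permutation p 0.00476 and 0.00919, adjusted p 0.04461) and Cdh1 (r = 0.656, rho 0.599, permutation p 0.00709 and 0.01348, adjusted p 0.04461). Hal moved with Gls2 (r = 0.699, rho 0.662, permutation p 0.00793 and 0.00651, adjusted p 0.04461) and with Etnppl (r = 0.605, rho 0.568, permutation p 0.00981 and 0.01596, adjusted p 0.04905). Gls2 moved with Etnppl (r = 0.597, rho 0.627, permutation p 0.00523 and 0.00348, adjusted p 0.04461). The negative pair was Ctsc with Etnppl (r = -0.529, rho -0.590, permutation p 0.00626 and 0.00347, adjusted p 0.04461). Without the 2 farthest libraries these 7 kept their sign, with r between 0.503 and 0.687 for the positive pairs and -0.465 for the negative pair. With DESeq2 size factors, Hal with Gls2, Hal with Etnppl, Gls2 with Etnppl and Ctsc with Etnppl were not called. By Spearman's rho after adjustment, Cyp2f2 with Hsd17b13, Cyp2f2 with Cdh1 and Hal with Etnppl were not called. Hal with Etnppl was also lost with a GC trend removed. Of 27 fits without a library, Hal with Gls2 was called in 4, Hal with Etnppl in 6 and Cyp2f2 with Cdh1 in 8. Gls2 with Etnppl was called in 10, Ctsc with Etnppl in 11, Cyp2f2 with Hsd17b13 in 12 and Cyp2f2 with Pigr in 21. The count of 9 also depended on single libraries. It was 2 without A/J replicate 3, C57BL/6J replicate 1 or 4, or PWK/PhJ replicate 1, 2 or 3. It was 3 without 129S1/SvImJ replicate 2, A/J replicate 1, C57BL/6J replicate 2, DBA/2J replicate 4 or NOD/ShiLtJ replicate 1. It was 4 without DBA/2J replicate 2 or 3 or WSB/EiJ replicate 2, and 5 without NOD/ShiLtJ replicate 2 or 3.

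As examples, 2 of the 27 libraries were chosen after their values had been seen. PWK/PhJ replicate 1 lay above its strain mean for Cyp2f2 (0.453 on the log2 scale), Hsd17b13 (0.435), Ctsc (0.473), Pigr (0.370) and Cdh1 (0.429) and below it for Gls2 (-0.147), Etnppl (-0.251) and Aldh1b1 (-0.154), while Hal (-0.041) lay close to it and Sds (0.149) above. DBA/2J replicate 4 lay the other way, at -0.401 for Cyp2f2, -0.509 for Hsd17b13, -0.448 for Ctsc, -0.297 for Pigr and -0.455 for Cdh1, with 0.461 for Hal, 0.314 for Etnppl, 0.203 for Sds, 0.198 for Gls2 and 0.048 for Aldh1b1. Endothelial markers summed to 670.1 CPM in PWK/PhJ replicate 1, against 205.1 and 237.1 CPM in the other PWK/PhJ libraries. In DBA/2J replicate 4 they summed to 63.3 CPM, against 183.2 and 151.4 CPM in the others. Kupffer markers summed to 370.1 CPM in PWK/PhJ replicate 1, against 125.9 and 126.4 CPM, and to 29.9 CPM in DBA/2J replicate 4, against 112.4 and 166.9 CPM.

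**Figure D4:**
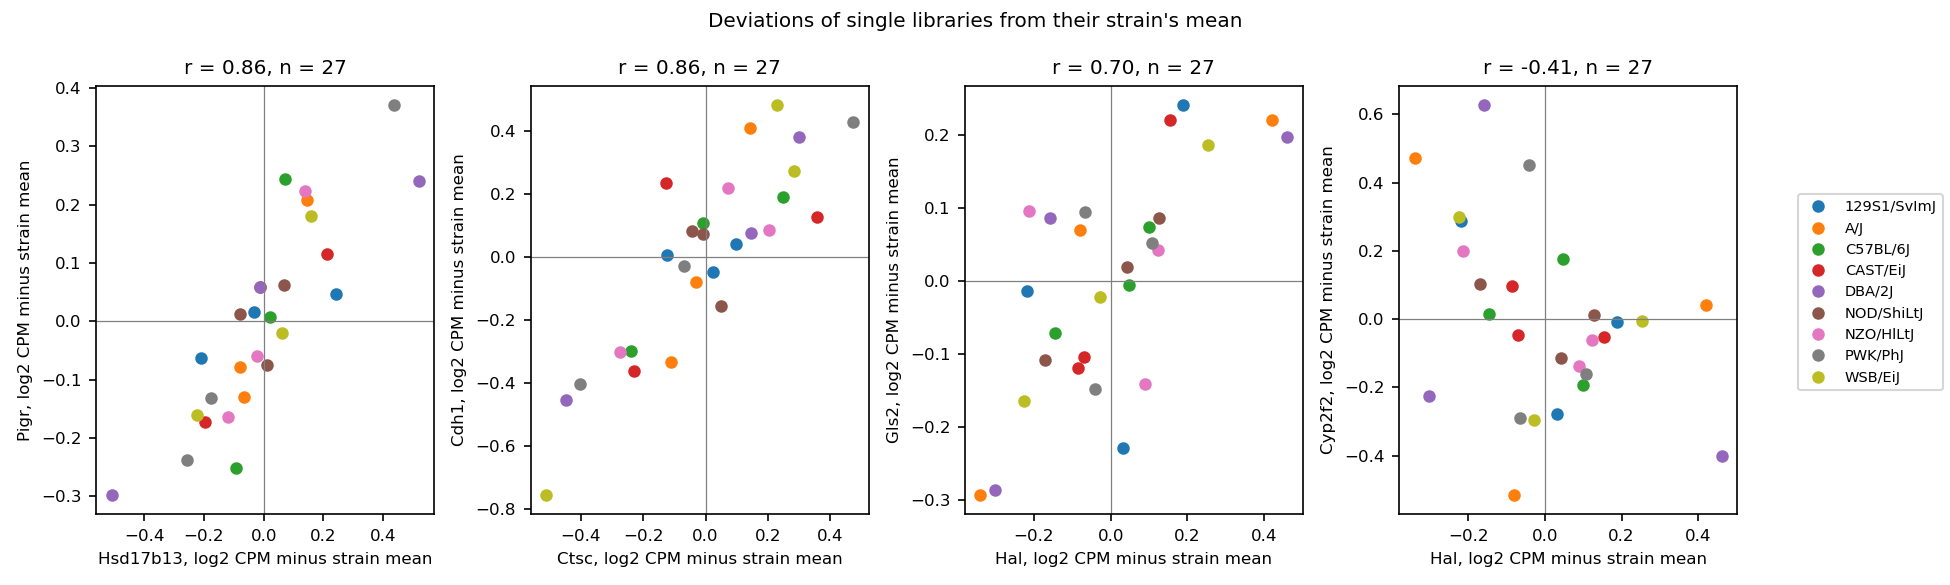
Deviation of each library from its strain mean (log2 CPM) for 4 gene pairs, coloured by strain. Hsd17b13 with Pigr and Ctsc with Cdh1 rise together (r = 0.859 and 0.865), Hal with Gls2 more loosely (r = 0.699), and Hal with Cyp2f2 leans downward (r = -0.412, not called).

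Over the 27 libraries, deviations of the mean endothelial marker level rose with Hsd17b13 (r = 0.820, rho 0.819, permutation p 5e-05 and 9e-05, adjusted p 0.003) and Pigr (r = 0.840, rho 0.819, permutation p 4e-05 and 2e-05, adjusted p 0.003). They fell with Etnppl (r = -0.570, rho -0.629, permutation p 0.00325 and 0.00196, adjusted p 0.039). Adjustment was over 120 relations of a gene with a list or library measure. Stellate cell markers gave r = 0.770 with Hsd17b13 and 0.791 with Pigr (permutation p 8e-05 and 0.0001, adjusted p 0.003 each). The Alb level rose with Cyp2f2 (r = 0.787), Hsd17b13 (0.817) and Pigr (0.704), with permutation adjusted p of 0.039, 0.039 and 0.04887. Cyp2f2 rose with the hepatocyte list (r = 0.761, rho 0.687) and Pigr with the midlobular list (r = 0.649, rho 0.650; permutation adjusted p 0.039 each). With the 14 other periportal genes, Sds alone of the 10 was called (r = 0.655, rho 0.709, permutation p 0.00298 and 0.00093, adjusted p 0.039). Ctsc and Cdh1 gave r of -0.641 and -0.628 with that list and missed the threshold (permutation adjusted p 0.06032 and 0.05492). No relation with the Kupffer cell list was called, the largest being 0.671 for Hsd17b13 (adjusted p 0.1289). With Kupffer and endothelial means removed, the median r of the 45 pairs was 0.227, and the 2 pairs left were Hsd17b13 with Pigr and Ctsc with Cdh1. The part of these cells in the pair relations was not tested beyond this.

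Genes of the opposite zone gave the third comparison: each periportal gene against 10 pericentral genes, 100 pairs. Within strains the median r was -0.091 and 38 of 100 were positive. Of 7 pairs called, 5 were negative. Glul, the glutamine synthetase of cells at the central vein, moved against Hsd17b13 (r = -0.779, rho -0.788, permutation p 0.00081 and 0.00033, adjusted p 0.027) and Pigr (r = -0.747, rho -0.767, permutation p 0.00064 and 0.00025, adjusted p 0.027). Oat, ornithine aminotransferase, moved against Cdh1 (r = -0.640, rho -0.690, permutation p 0.00078 and 0.00095, adjusted p 0.027) and Ctsc (r = -0.681, rho -0.661, permutation p 0.00171 and 0.00203, adjusted p 0.0342). Gulo, an enzyme of vitamin C synthesis, moved against Hal (r = -0.613, permutation p 0.00145, adjusted p 0.0342) and with Hsd17b13 (r = 0.399, permutation p 0.00209, adjusted p 0.03483). Pigr rose with Cyp1a2 (r = 0.695, permutation p 0.00286, adjusted p 0.04086). Across the 9 strain means the median r of the 100 pairs was -0.367, 18 were positive and 0 passed the adjusted threshold by the exact permutation test, with 19 under 0.05 before adjustment, 18 of them negative. Spearman's rho passed it for 0 as well.

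The cross-zone count also turned on single libraries. It was 0 without 129S1/SvImJ replicate 3, A/J replicate 3, C57BL/6J replicate 1, DBA/2J replicate 2 or 4, or PWK/PhJ replicate 1, 2 or 3. It was 2 without 129S1/SvImJ replicate 2 or A/J replicate 1 or 2, 3 without NZO/HlLtJ replicate 3, and 4 without NOD/ShiLtJ replicate 2 or NZO/HlLtJ replicate 1 or 2. It was also 0 with the Kupffer and endothelial covariates.

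Other genes of both zones were read from lists beside these strain differences. Of 14 further periportal genes 13 were called among strains, beside 74.2% of all genes tested and 80.1% of those averaging at least 10 CPM, with 10 higher and 0 lower in WSB/EiJ (median log2 fold change 0.68) and 0 higher and 6 lower in A/J (median -0.47). In PWK/PhJ, where the 10 genes had 7 higher and 0 lower, the list had 1 higher and 4 lower (median -0.01). Cps1, the entry enzyme of the urea cycle, was highest in WSB/EiJ (8764 ± 1110 CPM) and lowest in A/J (3354 ± 691.8 CPM; SD, n = 3 each; edgeR adjusted p for strain 0.000227). Ass1, which joins citrulline and aspartate in the urea cycle, was also lowest in A/J, at 1192 ± 160.3 CPM (SD, n = 3; edgeR adjusted p for strain 1.27e-05). Apoa4, a lipid-carrying apolipoprotein with the largest F of the list, was highest in 129S1/SvImJ, at 1449 ± 406.7 CPM (SD, n = 3; edgeR adjusted p for strain 1.42e-08).

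Of 10 pericentral genes 8 were called among strains, a share close to that of all genes tested (74.2%). C57BL/6J had 5 higher and 0 lower (background higher 11.6%, median log2 fold change 0.53), and WSB/EiJ 0 higher and 4 lower (background lower 9.23%, median -0.58). Cyp2e1, a pericentral cytochrome P450, was highest in C57BL/6J at 8654 ± 530.9 CPM and lowest in CAST/EiJ at 4182 ± 939 CPM (SD, n = 3 each; edgeR adjusted p for strain 4.74e-05). Glul was lowest in WSB/EiJ at 92.6 ± 32.3 CPM and highest in CAST/EiJ at 424.9 ± 217.6 CPM (SD, n = 3 each; edgeR adjusted p for strain 0.00272). Oat had the largest F of the list, with 1189 ± 11.1 CPM in CAST/EiJ against 149.9 ± 20.8 CPM in WSB/EiJ (SD, n = 3 each; edgeR adjusted p for strain 1.64e-07). In WSB/EiJ, then, both periportal lists had calls in the higher direction only and the pericentral list in the lower direction only. C57BL/6J ran nearly the other way. Beside its 5 higher pericentral calls, the 14 other periportal genes had 0 higher and 5 lower (background lower 6.5%, median -0.34). The 10 genes had 1 higher and 4 lower there.

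**Figure D5:**
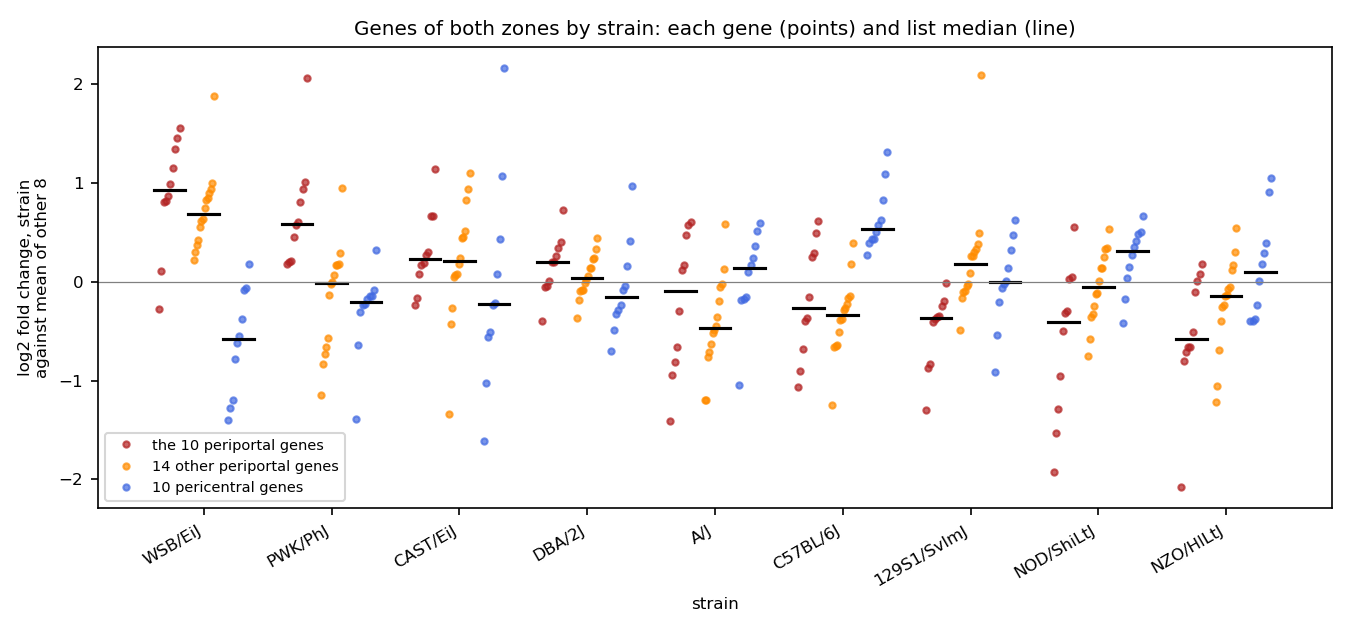
Log2 fold change of each strain against the mean of the other 8 for the 10 periportal genes (red), 14 other periportal genes (orange) and 10 pericentral genes (blue), with list medians as black lines. WSB/EiJ medians are 0.93, 0.68 and -0.58, and PWK/PhJ medians 0.58, -0.01 and -0.21.

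Genes of the Wnt and glucagon signals were read against the 74.2% of all genes tested that were called, and both lists lay below that share. Of 14 Wnt pathway genes tested (15 in the list) 9 were called among strains. The most abundant, Ctnnb1, which encodes beta-catenin, ran from 141.6 ± 11.2 CPM in WSB/EiJ to 223.9 ± 24.3 CPM in PWK/PhJ (SD, n = 3 each; edgeR adjusted p for strain 7.46e-05). Of 6 glucagon and cAMP genes 3 were called. Gcgr, the glucagon receptor, ran from 197.4 ± 23.3 CPM in NZO/HlLtJ to 390.9 ± 9.28 CPM in WSB/EiJ (SD, n = 3 each; edgeR adjusted p for strain 0.00622). All 4 midlobular genes were called, Hamp2, a hepcidin gene, most by F (adjusted p 5.25e-12). Among the remaining lists, 8 of 8 Kupffer cell, 8 of 8 liver endothelial cell, 5 of 6 hepatocyte, 5 of 8 stellate cell and 2 of 7 immediate early genes tested were called. The tested cholangiocyte (2) and lymphocyte (1) markers were called too. The cholangiocyte markers, Sox9 and Spp1, averaged 1.42 and 2.69 CPM, and both were called higher in NOD/ShiLtJ (median log2 fold change 1.47). In C57BL/6J and in CAST/EiJ 1 was called higher, and in 129S1/SvImJ, A/J, DBA/2J and WSB/EiJ 1 was called lower.

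Outside the 10 genes, the gene most alike each of them over the 27 libraries was found by Pearson's r of log2 CPM among genes averaging at least 10 CPM, as a description that mixes strain and library differences. Mmd2 was nearest to Hal (r = 0.872) and to Etnppl (r = 0.92). Uroc1, the enzyme after Hal in histidine breakdown, was nearest to Aldh1b1 (r = 0.875). Cbs, of the transsulfuration pathway, was nearest to Gls2 (r = 0.859). Serinc1 was nearest to Pigr (r = 0.935), Gusb, a lysosomal glucuronidase, to Hsd17b13 (r = 0.907) and Sec11c, a signal peptidase subunit, to Ctsc (r = 0.894). Prdx4, a peroxiredoxin of the endoplasmic reticulum, was nearest to Cyp2f2 (r = 0.887), Ces2h, a carboxylesterase, to Sds (r = 0.816) and Mfsd6 to Cdh1 (r = 0.787).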

How the data were processed

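Per the labels' protocols, RNA was extracted with a column kit and a DNase step, polyadenylated RNA was selected and TruSeq v2 libraries were made. The authors deposited estimated counts (expected counts) per Ensembl gene, not scaled to depth. The submitters' processing notes name FastQC 0.11.5, DESeq2, and the builds GRCm38 and mm10; the aligner, the counter and the genome used for each strain are not given in the sources used here. Coordinates are GENCODE M21 on GRCm38.

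Counts were rounded to whole numbers. edgeR 4.0.16 in R 4.3.3 kept 14482 genes (filterByExpr) and scaled by TMM (0.722 to 1.23). It fitted 1 quasi-likelihood model with strain only to all 27 libraries. TMM ran from 0.7829 to 0.8324 in WSB/EiJ, where calls among the genes followed here were higher only. In NZO/HlLtJ, with lower calls only, it ran from 1.161 to 1.226. CAST/EiJ, with higher calls only, had 1.14 to 1.157, and A/J, with calls both ways, 0.7218 to 0.8998. PWK/PhJ replicate 1 had 0.878, against 1.072 and 1.125 in its strain. DBA/2J replicate 4 had 1.128, against 0.9595 and 0.8338. Whether the gene levels follow TMM was not tested. Adjusted p-values (Benjamini-Hochberg, over all genes tested within a comparison) under 0.05 were called. On simulated counts of 14082 genes with a changed CAST/EiJ, the strain test recovered 42.9% of 2-fold and 76% of 4-fold changes. Correlations used log2 CPM (prior count 2), exact permutations of 9 strain means (362880 orders) or 100000 shuffles within strains in Python 3.11.15, adjusted over 45 pairs, 100 cross-zone pairs or 120 gene and measure relations.

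Genes named are the 10 members. Strains named for a gene are up to 2 called changes in each direction. Of each list, names come from the 3 most abundant tested genes and the largest F, plus the nearest gene to each member; Glul was named after its values were seen. Members and lists were chosen with earlier results of these data known. Alternatives were DESeq2 1.42.0, other size factors, filters and prior counts, Spearman's rho, marker means as covariates, a replicate block, and leaving out each library. A GC trend in correlations and the 6-strain restriction were added later.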

Additional observations from a re-analysis of the deposited data

How the results depend on the processing

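All 10 genes stayed called among strains under every alternative, with 10 in all 27 fits without a library; the highest adjusted p was 0.00666, for Cyp2f2 without 129S1/SvImJ replicate 1. Of the 45 gene by strain calls, 32 were kept in all 7 alternatives on all libraries, 27 in all fits without a library and 25 in both, and 0 reversed; the count ran from 39 with the Kupffer and endothelial covariates to 47 with DESeq2, and from 41 to 46 without a library. Pairs called across strain means numbered 4, falling to 1 by Spearman's rho and to 1 with the covariates, and were 4 to 6 without a library. Pairs called within strains numbered 9, against 5 with DESeq2 size factors, 2 with the covariates, 5 in the 6 classical strains, and 2 to 12 without a library. By Spearman's rho, Cyp2f2 with Hsd17b13, Cyp2f2 with Cdh1 and Hal with Etnppl were lost within strains, and Etnppl with Cdh1 was gained. Periportal with pericentral pairs numbered 7, against 4 with a GC trend removed, 0 with the covariates, 11 with the replicate block, and 0 to 9 without a library. The median r across strain means was 0.505, or -0.036 over the 6 classical strains, chosen after seeing the values and without the 3 strains where most of these genes ran high; within strains it stayed between -0.133 and 0.227. Where not named, the cause was not tested.

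Replicate numbers did not pair the samples: of 76 same-numbered pairs of libraries, 17 had deviations correlated over 0.1 (median r 0.0231), and 7 of 27 libraries correlated best with their own number. A replicate block gave 41 gene by strain calls (6 of the 45 were not called under it), 5 pairs across strain means and 12 within strains. Depth limits none of the 10 genes, whose lowest count was 411. Leaving out a library leaves 2 in its strain, and 3 libraries per strain give little power for small changes.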
